A study of Homo sapiens with 20 samples.

Results

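The 51 genes described here encode proteins that make ribosomes in the nucleolus. They were taken by symbol from a list of genes of this pathway, and all 51 were found once in each of 3 deposited count tables, among 55093, 55093 and 34213 genes. The choice was made with earlier results of these data known. All 51 also passed the filter on low counts in every table, where 21908, 21328 and 15924 genes were tested.

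The cells were HEL, an established line from a human erythroleukaemia with the JAK2 V617F mutation, and their RNA gave 20 libraries, 2 in each of 10 groups. In the first table cells had received the solvent DMSO or 1 µM BCI, which blocks the phosphatases DUSP1 and DUSP6, for 4 h or 48 h. In the second they had received DMSO, 10 µM BI-D1870, which blocks RSK kinases, or 10 µM BI-D1870 with 1 µM BCI, for 24 h. The third held untreated parental cells and cells that had persisted through prolonged culture with a JAK2 inhibitor, called RuxP for ruxolitinib and FedP for fedratinib. The later samples of the first table are headed 24h in the file but are 48 h in the labels, which were followed, so that their time is uncertain. Every group, controls included, came from the same mutant line and no unmutated cells were sequenced. No source used here says whether the 2 libraries of a group came from separate cultures, so p-values measure the spread between these libraries, which may be technical.

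Ribosome production begins with RNA polymerase I, which copies the ribosomal DNA into a long precursor RNA. Small nucleolar ribonucleoproteins (snoRNPs) guide its modification, those of box C/D class methylating it and those of box H/ACA class converting uridines to pseudouridine. A large early assembly, the small-subunit processome, folds and cuts the part that becomes the small subunit, and other factors mature the large subunit. The genes for these proteins are a classic target group of the transcription factor MYC and are highly expressed in dividing leukaemic cells.

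Total counts per library ranged from 63916850 to 84452743 for the BCI table, from 54141164 to 70128404 for the BI-D1870 table and from 51799814 to 79755715 for the persistent cells. The lowest count of any of the 51 genes in a library was 88, for PWP2 in the second parental library. The biological coefficient of variation over all genes was 13.3%, 5.01% and 26.9%, so the second table resolves much smaller differences than the third. All 8 erythroid and megakaryocytic markers chosen for HEL cells stood above 10 CPM (counts scaled to a common library size) in every library. Of 5 lymphoid markers 4 stayed below 1 CPM in every library, and so did 5 of 6 monocyte and granulocyte markers. The exceptions were CD79A, at up to 7.88 CPM, and LYZ, at up to 54.3 CPM. Of 6 epithelial and stromal markers, 3 stood above 10 CPM in every library of the BCI table, 2 in the BI-D1870 table and 1 in the table of persistent cells. PECAM1, also known from platelets and megakaryocytes, made up most of their sum (173 to 270 CPM, 103 to 245 CPM and 169.8 to 725 CPM), while the collagen gene COL1A2 reached at most 0.116 CPM. The keratin gene KRT18 had 19.2 to 26.7 CPM in the BCI table. KRT8 had 9.69 and 8.43 CPM in parental and 34.2 and 29.8 CPM in FedP cells. PECAM1 moved with the groups, from 219 and 216 CPM in DMSO to 89.5 and 81.2 CPM with BI-D1870, and from 702 and 708 CPM in parental to 205 and 207 CPM in RuxP and 128 and 122 CPM in FedP cells. The part of such a shift in the results was not tested. Library RuxP 1 detected 16559 genes, while the other 5 libraries of that table detected 18528 to 20199.

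Levels of different members were compared per length, as CPM per kilobase of merged exons, in the 4 h DMSO libraries. NCL, the abundant nucleolar protein nucleolin, was highest at 276 CPM per kilobase. NPM1 (nucleophosmin) followed at 232, NOP10 of the box H/ACA snoRNPs at 189 and FBL (fibrillarin, the methyltransferase of the box C/D snoRNPs) at 118. UTP15 at 4.26 and PWP2 at 1.55, both small-subunit processome proteins, were lowest, and the median member stood at 36.6 CPM per kilobase. The members lie on many chromosomes. NOP56 (ENSG00000101361) is on the plus strand at chr20:2652145-2658393, FBL (ENSG00000105202) on the minus strand at chr19:39834458-39846414 and NCL (ENSG00000115053) on the minus strand at chr2:231453531-231483641, all in GRCh38 with GENCODE 29. NOP56 holds 5 annotated snoRNA genes within its boundaries on the same strand, GNL3 holds 6, NOP58 holds 4, and NCL and WDR43 hold 3 each.

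Counts of some members are uncertain. The PWP2 transcript matched FP565260.1 at 99.8% identity over 3264 bases, PPAN shared 1448 identical bases with the readthrough gene PPAN-P2RY11, and NOP2 shared 2539 with AC006064.6. NOB1 matched AC098859.1 at 96.8% identity over 1238 bases, and NPM1 and RRN3 had several partial copies. The strand setting of the counting is not given in the sources used here. Exons of 20 members overlap a gene on the opposite strand, among them NHP2 with RMND5B over 27.4% of its exon bases and HEATR1 with LGALS8 over 23.2%.

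Promoter sequences were searched because these genes are known MYC targets and most of them move together below. RefSeq promoter windows (GRCh38.p14, 250 bases before to 50 after a start site) were matched for 44 of the 51 members. Both strands were searched for the E-box CACGTG, which MYC with MAX can bind, the ETS motif CCGGAAGT and the palindromic motif of NRF1, none of which contains another. The E-box was present in 21 of the 44 genes (47.7%), against 8.77% of all 27305 genes with a window and 11.9% of 12134 genes with a window that were tested in the first table. Counted only from 20 bases before to 40 after the start, it was present in 19 of 44 (43.2%), against 1.92% and 2.61%. The plan of the search named the motifs but not this interval, so the narrower shares are only a description. The ETS motif was present in 13 (29.5%, against 4.95% and 8.79%) and the NRF1 motif in 3 (6.82%, against 1.52% and 2.44%). The stretches below show 6 members with an E-box close to the start, with the E-box in capitals, and NOP56 and NCL, whose windows hold none, as the 46 bases up to the start. The 6 were picked after the windows had been read, from members with values given below.
FBL: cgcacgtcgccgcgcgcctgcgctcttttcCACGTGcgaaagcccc
UTP20: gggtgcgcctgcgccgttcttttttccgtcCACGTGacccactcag
PES1: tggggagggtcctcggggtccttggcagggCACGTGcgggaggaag
MRTO4: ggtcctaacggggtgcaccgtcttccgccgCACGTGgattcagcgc
PNO1: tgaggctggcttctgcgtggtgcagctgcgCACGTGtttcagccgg
NOP14: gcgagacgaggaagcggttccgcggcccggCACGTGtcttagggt
NOP56: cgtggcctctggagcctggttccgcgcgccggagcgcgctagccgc
NCL: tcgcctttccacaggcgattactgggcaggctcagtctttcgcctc
They lie at chr19:39846358-39846403 (minus strand, FBL), chr12:101280065-101280110 (plus, UTP20), chr22:30591882-30591927 (minus, PES1), chr1:19251789-19251834 (plus, MRTO4), chr2:68157867-68157912 (plus, PNO1), chr4:2963377-2963421 (minus, NOP14), chr20:2652586-2652631 (plus, NOP56) and chr2:231464485-231464530 (minus, NCL), in GRCh38.p14. Position 1 being the first transcribed base, the E-box begins at position 7 in FBL, 14 in PES1, 15 in MRTO4, 10 in PNO1 and 16 in NOP14, and 10 bases before the start in UTP20.

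The first comparison asks what BCI did within 4 h. Of the 51 members 40 fell, none rose and 11 did not pass the test (edgeR quasi-likelihood test, Benjamini-Hochberg adjusted p under 0.05 over all genes tested). Over all genes tested 5.94% fell and 4.8% rose. All 51 had both BCI libraries below both DMSO libraries, an arrangement found for 28.5% of all genes tested, and none had both above, as 30.4% of all genes did. The median log2 fold change of the members was -0.50, with a range of -0.98 to -0.07, beside a median of 0.02 over all genes tested. Of the 51, 19 fell by more than 1.5-fold and none by more than 2-fold. Summed over the members, the level went from 10838 and 10875 CPM in the DMSO libraries to 8084 and 8200 CPM in the BCI libraries. In bulk RNA, a change in how many cells express a gene and a change in RNA per cell cannot be told apart.

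**Figure D1:**
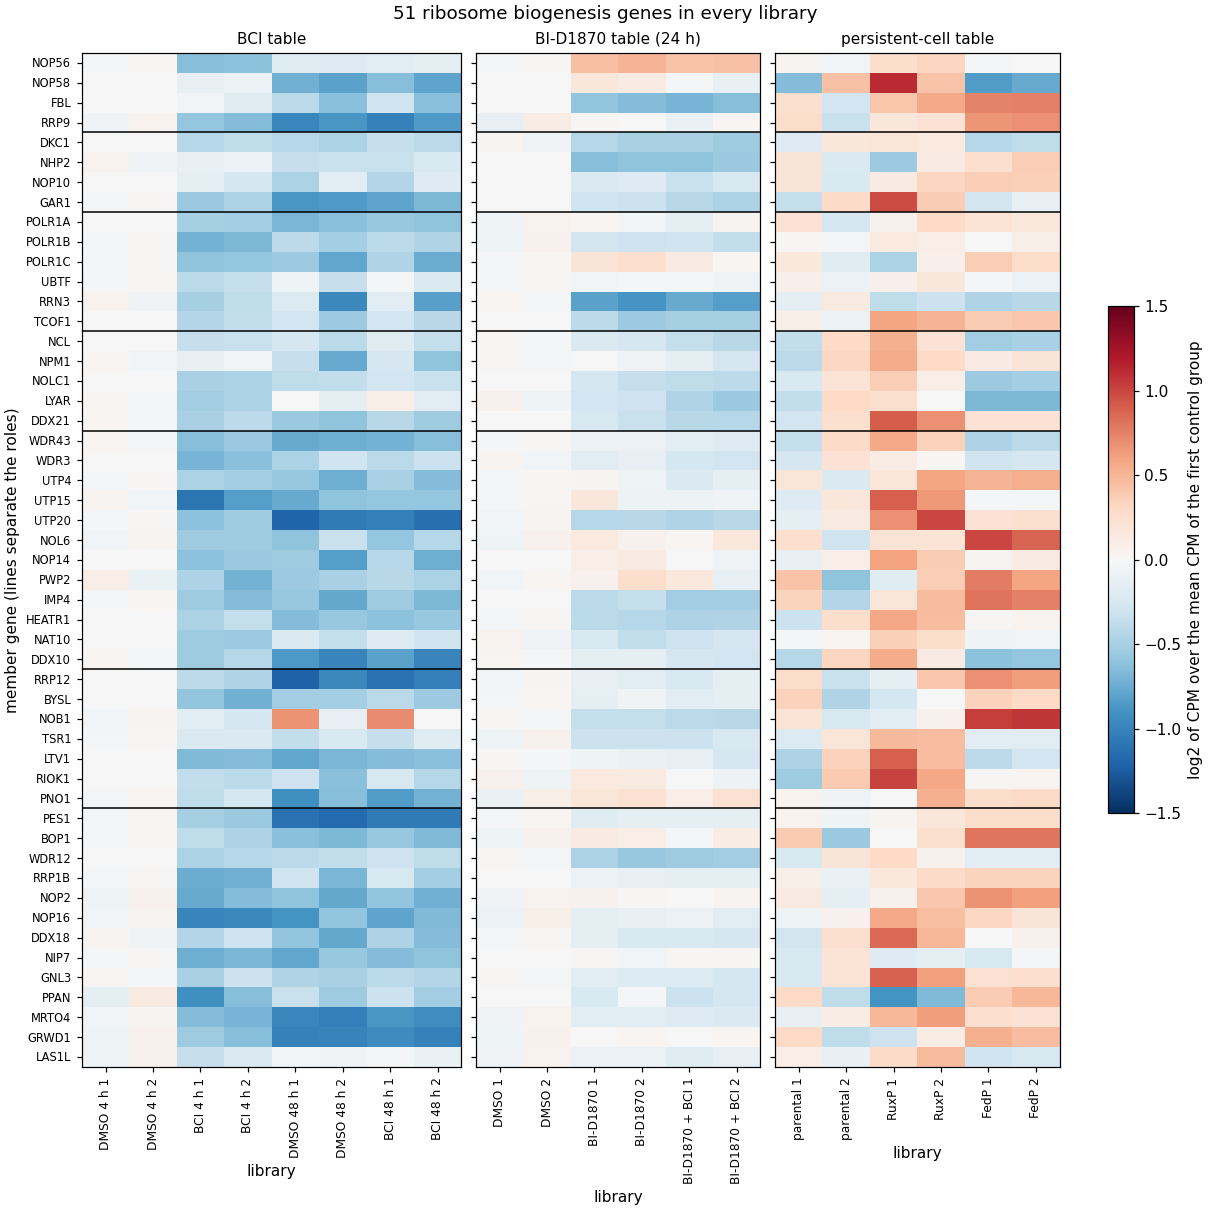
Each row is 1 of the 51 members, grouped by role, and each column 1 library of the 3 tables; colour gives log2 of CPM relative to the mean of that table's first control group (blue lower, red higher). In the first table both 4 h BCI libraries and all 4 libraries of 48 h are blue for most members, as in the summed levels of 8084 and 8200 CPM after BCI against 10838 and 10875 CPM in DMSO at 4 h.

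Among the snoRNP proteins, the 4 h response was split. NOP56, a core protein of the box C/D snoRNPs, had 292 and 304 CPM in DMSO and 192 and 194 CPM in BCI. It fell by 0.63 on the log2 scale (SE 0.0678, edgeR adjusted p = 0.00062, n = 2 libraries a group). RRP9, which belongs to the U3 snoRNP, fell by 0.62 (adjusted p = 0.0024), from 128 and 138 CPM to 88.9 and 84.5 CPM. The other 2 proteins of the same class did not pass the test. FBL had 255 and 259 CPM in DMSO and 249 and 226 CPM in BCI (log2 fold change -0.11, SE 0.118, edgeR adjusted p = 0.64). NOP58, the partner of NOP56, had 211 and 211 CPM and then 193 and 199 CPM (log2 fold change -0.11, edgeR adjusted p = 0.47). Among the box H/ACA proteins DKC1, the pseudouridine synthase dyskerin, fell by 0.41 and GAR1 by 0.52. NHP2 and NOP10 did not pass the test, with log2 fold changes of -0.10 and -0.20.

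Of the 6 genes of RNA polymerase I and its factors 5 fell. POLR1B, the second largest subunit, fell by 0.69 (SE 0.0766, edgeR adjusted p = 0.00069), from 109 and 111 CPM to 67.3 and 68.7 CPM. POLR1A, the largest subunit, fell by 0.51 and POLR1C, shared with RNA polymerase III, by 0.60. TCOF1 (treacle) fell by 0.40 and UBTF, which binds the ribosomal DNA, by 0.38 (edgeR adjusted p = 0.028 and 0.048). RRN3, the initiation factor that recruits the polymerase, had 251 and 233 CPM in DMSO and 172 and 186 CPM in BCI, with a log2 fold change of -0.44 that did not pass the test (edgeR adjusted p = 0.32). Its standard error was 0.242, from a fit that includes its 48 h libraries, which stood apart from each other at 210.5 and 124 CPM in DMSO.

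Of the 5 other nucleolar proteins NPM1 was the exception: it had 909 and 866 CPM in DMSO and 823 and 866 CPM in BCI (log2 fold change -0.07, edgeR adjusted p = 0.82). Its 2 libraries at 866 CPM are equal as printed, and only further digits place the BCI library lower. NCL had 1912 and 1908 CPM in DMSO and 1507 and 1511 CPM in BCI, and fell by 0.34 (SE 0.0821, edgeR adjusted p = 0.03). NOLC1, a chaperone of snoRNPs, fell by 0.48, LYAR by 0.50 and the RNA helicase DDX21 by 0.44.

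All 12 genes of the small-subunit processome and early small-subunit assembly fell, with a median of -0.58. UTP15, part of the subcomplex that also serves transcription of ribosomal DNA, had 27.7 and 26.1 CPM in DMSO and 12.6 and 15.2 CPM in BCI. It fell by 0.96 (SE 0.117, edgeR adjusted p = 0.0012). The smallest fall of the group was that of HEATR1, by 0.42. Of the 7 genes of later small-subunit assembly 3 fell: BYSL by 0.65, LTV1 by 0.65 and RRP12, an export factor, by 0.43. NOB1, the nuclease that makes the last cut of the small-subunit RNA, TSR1, PNO1 and the kinase RIOK1 did not pass the test, with log2 fold changes of -0.20 to -0.39.

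Of the 13 genes of large-subunit assembly 12 fell, with a median of -0.59 over all 13. NOP16 had the largest fall of all 51 members, from 36.8 and 39.1 CPM in DMSO to 19.1 and 19.4 CPM in BCI, by 0.98 on the log2 scale (SE 0.116, edgeR adjusted p = 0.0011). PPAN, whose count is uncertain because of the readthrough gene, had 21.3 and 25.7 CPM and then 12.4 and 15.1 CPM, and fell by 0.77. RRP1B went from 383 and 390.1 CPM to 230.3 and 235 CPM and fell by 0.73. NIP7 went from 49.4 and 50.6 CPM to 30.1 and 31.2 CPM and fell by 0.71. In NOP16, RRP1B and NIP7 the libraries of a group lay close together and far from the other group, while in PPAN the libraries of a group were farther apart, though without overlap. LAS1L, which acts in cutting the second internal spacer, was the member that did not pass the test (log2 fold change -0.28, edgeR adjusted p = 0.08).

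The number of members called as falling at 4 h was lower without any one of the 4 h libraries, which leaves a group with a single library. It was 20 without the first DMSO library, 15 without the second, 17 without the first BCI library and 21 without the second. NCL lost its call without any one of these 4 (edgeR adjusted p = 0.18 to 0.2), as did RRP1B (0.061 to 0.093). PPAN lost it without the second DMSO library or the first BCI library (0.13 for both), and RRP9 without the second DMSO library (0.051). The direction stayed downward for each of them, at -0.34 for NCL and -0.72 to -0.75 for RRP1B without any one of the 4 libraries.

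Other genes of the pathway, from a list of 90 symbols that does not contain the members, were also read from the same fit. Like the members, this list was chosen with earlier results of these data known, so it is no independent check. The list names some genes by both an older and a newer symbol, and 86 of its symbols were found and tested. Of these 86, 45 fell at 4 h (52.3%, beside 5.94% of all genes) and none rose, with a median of -0.34. RRS1, a large-subunit assembly factor, fell by 1.09, IMP3, a U3 snoRNP protein, by 1.03 and CD3EAP, a subunit of RNA polymerase I, by 1.25. MYC itself had 891 and 901 CPM in DMSO and 603 and 607 CPM in BCI, and fell by 0.57 (edgeR adjusted p = 0.037). Whether MYC had a part in the fall of the members was not tested. Members with an E-box in a promoter window fell in 18 of 21 cases (median -0.54), and those without in 16 of 23 (median -0.45). The 5 largest falls include NOP16, UTP15, PPAN and NIP7, none of which has an E-box in its windows; RRP1B has no window in the table.

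At 48 h no difference between BCI and DMSO was called. None of the 51 members passed the test, as none of all genes tested did (0% in either direction). No member had an unadjusted p under 0.05 by edgeR, while 316 of all genes did. DESeq2 and limma-voom called no member either. The members' log2 fold changes ran from -0.04 to 0.13, with a median of 0.06 and a median standard error of 0.09. NOP56 had 262 and 261 CPM in DMSO and 265 and 271 CPM in BCI. FBL had 194 and 166 CPM and then 209 and 166 CPM, and NCL 1607 and 1441 CPM and then 1688 and 1494 CPM. For FBL and NCL, as for NOP16 (20.4 and 25.2 CPM, then 21.9 and 24 CPM), the groups overlapped. Of the 51 members 13 had both BCI libraries above both DMSO libraries, an arrangement found for 10.8% of all genes, and 0 had both below, as 10.5% of all genes did. Of the 51 values 46 were positive. Without the first 48 h DMSO library 8 members (15.7%) had an unadjusted p under 0.05, beside 8.89% of all genes, and none was called. MYC had 1102 and 824 CPM in DMSO and 1150 and 885 CPM in BCI (log2 fold change 0.08, edgeR adjusted p = 1).

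**Figure D2:**
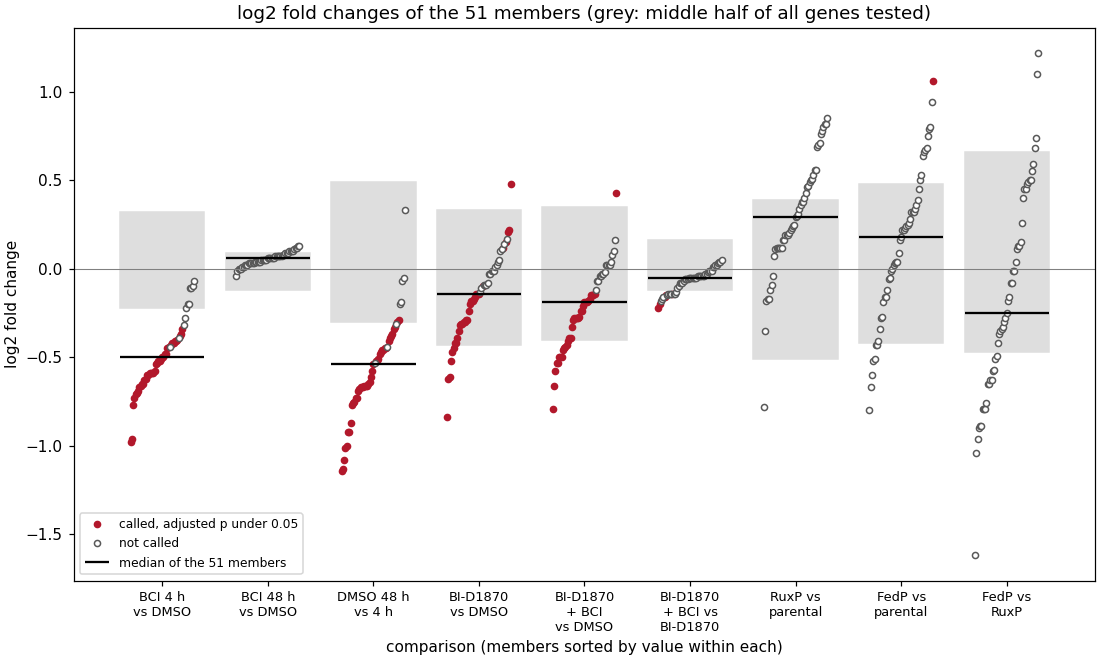
Each point is the log2 fold change of 1 member in 1 of 9 comparisons (filled red where edgeR adjusted p was under 0.05), the black line is the median of the 51 members and the grey box the interquartile range of all genes tested. Most members lie below the grey box for BCI at 4 h (median -0.50) and for DMSO at 48 h against 4 h (median -0.54), while all lie near 0 for BCI at 48 h (median 0.06).

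The change of the BCI response between the times was tested as such, as the log2 fold change at 48 h minus that at 4 h. It passed the test for 26 of 51 members, all with the response less negative at 48 h, beside 2.08% of all genes in that direction and 1.37% in the other. All 51 differences were positive, with a median of 0.55 and a range of 0.16 to 1.05. These differences reuse the 4 h libraries, so they are not a second observation of the 4 h fall. The largest were those of UTP15 (1.05, SE 0.165, edgeR adjusted p = 0.011), NOP16 (0.99), RRP1B (0.83), MRTO4, a large-subunit assembly factor (0.77), LTV1 (0.75) and NIP7 (0.75). For NOP56 the difference was 0.67 (SE 0.0956, adjusted p = 0.0072), for NCL 0.40 (adjusted p = 0.1) and for FBL 0.17 (adjusted p = 0.68). LTV1 had 85.9 and 85.6 CPM in DMSO and 54.3 and 54.6 CPM in BCI at 4 h. At 48 h it had 50.1 and 53.3 CPM in DMSO and 54.6 and 55.6 CPM in BCI. Its 48 h DMSO libraries were already as low as its 4 h BCI libraries, and those of MRTO4 were lower (means of 93.8 against 118 CPM). The other genes named with a called difference had a higher mean in 48 h DMSO than in 4 h BCI. These means were 262 against 193 CPM for NOP56, 277 against 233 for RRP1B and 16.8 against 13.9 for UTP15. For NOP16 they were 22.8 against 19.2 CPM and for NIP7 31.4 against 30.6. FBL, whose difference was not called, was lower in 48 h DMSO, at 180 against 238 CPM. NCL, also not called, had 1524 against 1509 CPM. For MYC the difference was 0.64 (adjusted p = 0.13). Of the other 86 pathway genes 22 passed the test in the same direction and none in the other, led by CD3EAP (1.34), RRS1 (1.16) and IMP3 (1.16). Leaving out any one of the 4 h libraries leaves a group with a single library, and almost all of these calls were then lost. The differences themselves hardly moved, at 0.74 for LTV1 without any one of them and 0.63 to 0.69 for NOP56. Without the first 48 h BCI library 13 members were called. The 7 genes named with the called differences each lost their call in at least 3 of these settings (edgeR adjusted p from 0.057 to 0.21), with positive differences throughout.

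The solvent controls themselves differed between the times. Between 4 h and 48 h in DMSO 43 of 51 members fell, none rose and 8 did not pass the test, beside 13.2% of all genes that fell and 13.5% that rose. The median of the members was -0.54, beside 0.04 over all genes tested. Of the 51, 48 had both 48 h libraries below both 4 h libraries, an arrangement found for 30.2% of all genes, and none had both above (32.7% of all genes). This comparison shares its 4 h DMSO libraries with the BCI comparison at 4 h, so the values of both are set side by side here without a measure of their likeness. The time of treatment cannot be told apart from whatever else separated the 2 harvests.

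The order of the members in that comparison was led by assembly factors of both subunits. PES1, of the PeBoW complex needed for the large subunit, had 215 and 224 CPM at 4 h and 101 and 97.7 CPM at 48 h. It fell by 1.14 (SE 0.0718, edgeR adjusted p = 4.4e-05), where BCI at 4 h gave -0.52. UTP20 had 85.6 and 87.2 CPM and then 37.5 and 41.5 CPM and fell by 1.13, where BCI gave -0.58. RRP12 had 177 and 176 CPM and then 76.4 and 90.4 CPM and fell by 1.08, where BCI gave -0.43. In these 3 genes both 48 h libraries lay below the 4 h BCI libraries as well. GRWD1, a large-subunit factor, had 213 and 234 CPM and then 111 and 112 CPM and fell by 1.01, where BCI gave -0.59. MRTO4 had 183 and 193 CPM and then 95.4 and 92.3 CPM and fell by 1, where BCI gave -0.67.

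Some members differed between the comparisons. NOP58 fell by 0.76 with time (edgeR adjusted p = 3e-04), from 211 and 211 CPM to 128 and 121 CPM, where its value for BCI was -0.11. FBL fell by 0.51 with time, to 194 and 166 CPM, and NPM1 by 0.54, to 696 and 526 CPM. NOP56, by contrast, had 262 and 261 CPM at 48 h against 292 and 304 CPM at 4 h (log2 fold change -0.19, edgeR adjusted p = 0.063). LYAR stood at 96.3 and 87.5 CPM against 97.9 and 95.4 CPM (log2 fold change -0.07, adjusted p = 0.63). NOB1 was the 1 member with a positive value, 0.33 (SE 0.26, edgeR adjusted p = 0.39): its 48 h DMSO libraries had 103 and 59.2 CPM, and without the first of them the value was -0.14. The same split by replicate number was present in the 48 h BCI libraries, with 106 and 64.3 CPM for NOB1 and 217 and 138 CPM for RRN3. Over all 51 members the count of falls stayed between 30 and 45 when 1 library was left out. FBL lost its call without either 4 h DMSO library (edgeR adjusted p = 0.073 and 0.083), as did NCL (0.11 and 0.1) and NPM1 (0.12 and 0.086). Without the second 48 h DMSO library NCL had an adjusted p of 0.061 and NPM1 of 0.064. Of the other 86 pathway genes 54 fell (62.8%, beside 13.2% of all genes) and none rose, led by EBNA1BP2 (-1.03), MYBBP1A (-1.02) and DHX37 (-0.96). MYC had 1102 and 824 CPM at 48 h, a log2 fold change of 0.10 (adjusted p = 0.64). Of members with an E-box 19 of 21 fell (median -0.66) and of those without 17 of 23 (median -0.45).

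Between BCI at 4 h and BCI at 48 h, a comparison added after the data had been seen, 6 members rose (11.8%) and 9 fell (17.6%). Of all genes 13.8% rose and 11.7% fell, so the members were not far from that background. Their median log2 fold change was 0.01, beside 0 over all genes. Without overlap, 16 members were higher and 17 lower, beside 31.8% and 31.1% of all genes. MYC rose by 0.75 (edgeR adjusted p = 0.005). NOP56 rose by 0.48 and LYAR by 0.47, UTP15 by 0.37, WDR3 by 0.30, NAT10, an RNA acetyltransferase, by 0.29 and POLR1B by 0.27. RRP12 fell by 0.64, NOP58 by 0.60, PES1 by 0.54 and UTP20 by 0.50. The other 5 that fell were PNO1, DDX10, GRWD1, RRP9 and MRTO4. The count of 15 was 9 without either 4 h DMSO library, 6 without the first 4 h BCI library and 7 without the second. The calls of UTP15, WDR3, NAT10, LYAR and PNO1 were each lost without at least 3 single libraries (edgeR adjusted p from 0.05 to 0.32). Summed member levels were 8379 and 7594 CPM in BCI at 48 h and 7979 and 7293 CPM in DMSO at 48 h, both below the 10838 and 10875 CPM of DMSO at 4 h. At 48 h the BCI and the DMSO libraries therefore stood at about the same member level as the BCI libraries of 4 h, at 8084 and 8200 CPM.

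BI-D1870 for 24 h gave a different pattern in the second table. Of 51 members 27 fell, 5 rose and 19 did not pass the test, beside 24.3% of all genes that fell and 22.8% that rose. The members' median was -0.14, with a range of -0.84 to 0.48, beside -0.01 over all genes. Of the 27, 3 fell by more than 1.5-fold. Both BI-D1870 libraries lay below both DMSO libraries for 33 members and above them for 8, beside 36.3% and 34.2% of all genes, so the share that was higher is the one below the background. Summed member levels were 9401 and 9440 CPM in DMSO and 8538 and 8335 CPM in BI-D1870. Leaving out any 1 library left 22 to 33 members called.

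The 4 box C/D proteins went different ways under BI-D1870. NOP56 had 188 and 193 CPM in DMSO and 260.4 and 272 CPM in BI-D1870, and rose by 0.48 (SE 0.0396, edgeR adjusted p = 5.1e-09). NOP58 had 200.5 and 202 CPM and then 227 and 219 CPM, and rose by 0.15 (adjusted p = 0.0057, or 0.069 without the first BI-D1870 library). FBL had 185 and 185 CPM and then 123 and 118 CPM, and fell by 0.61 (SE 0.0424, edgeR adjusted p = 4.1e-10). RRP9 had 50.9 and 59.9 CPM and then 56 and 55.8 CPM, with the BI-D1870 libraries inside the DMSO range. NOP56 and FBL, whose proteins sit in the same particle, thus went in opposite directions, at 1.39 and 0.653 of the DMSO level.

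**Figure D3:**
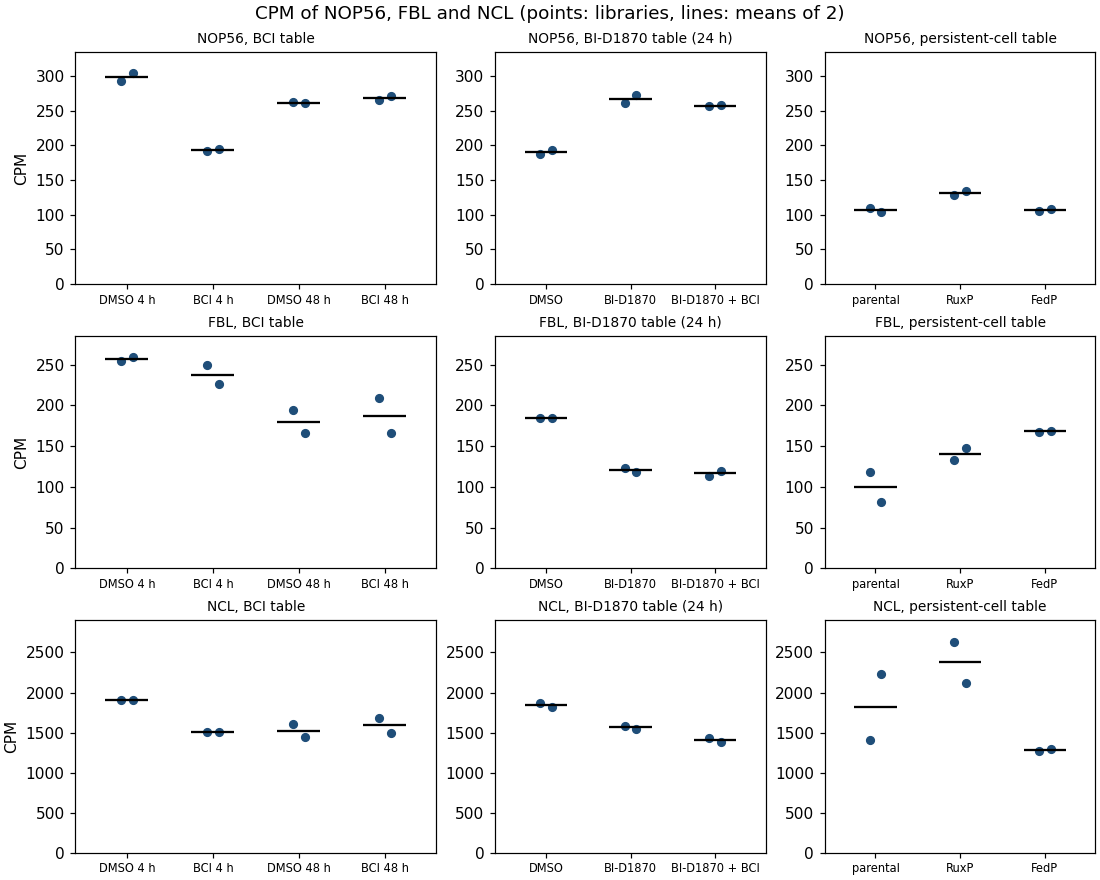
Points are the CPM of single libraries for NOP56, FBL and NCL in the 3 tables, lines are the means of 2 libraries, and each axis starts at 0. NOP56 was lower in BCI at 4 h (192 and 194 CPM against 292 and 304 CPM) and higher in BI-D1870 (260.4 and 272 CPM against 188 and 193 CPM), while FBL was lower in BI-D1870 (123 and 118 CPM against 185 and 185 CPM).

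All 4 box H/ACA proteins fell under BI-D1870. NHP2 had 60.3 and 60 CPM in DMSO and 38.7 and 39.5 CPM in BI-D1870, and fell by 0.62 (SE 0.0535, edgeR adjusted p = 9e-09), though its exons overlap those of RMND5B. DKC1 fell by 0.45, GAR1 by 0.31 and NOP10 by 0.20. In the polymerase I group RRN3 had 149.8 and 143 CPM and then 83.9 and 79.2 CPM, and fell by 0.84 (SE 0.0471, edgeR adjusted p = 1.8e-11), the largest fall of the 51. TCOF1 had 225 and 225 CPM and then 171 and 154 CPM and fell by 0.47. POLR1C rose by 0.22, from 19.3 and 20 CPM to 22.4 and 23.4 CPM. POLR1A and UBTF did not pass the test, with log2 fold changes of -0.01 and -0.03. Within 1 enzyme and its factors, members thus fell, rose or missed the test.

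Of the other nucleolar proteins NCL had 1864 and 1825 CPM in DMSO and 1583 and 1548 CPM in BI-D1870, and fell by 0.24 (SE 0.0349, edgeR adjusted p = 1.1e-05). NOLC1, LYAR and DDX21 fell by 0.29 to 0.31. NPM1 had 1110 and 1080 CPM and then 1093 and 1054 CPM and did not pass the test. Among the 12 early small-subunit genes 6 fell, the most UTP20 and HEATR1 (by 0.42 each), and NOP14 rose by 0.12, from 147 and 147 CPM to 158 and 161 CPM. Among the 7 later small-subunit genes PNO1 rose by 0.21, from 24 and 27.3 CPM to 29.1 and 30.1 CPM, and 3 fell. Among the 13 large-subunit genes 6 fell, the most WDR12 of the PeBoW complex, by 0.52, from 86.5 and 83.8 CPM to 61.4 and 57.6 CPM. Apart from that of NOP56, each of these rises lost its call when some library was left out, that of NOP58 as given above. Such a setting leaves a group with a single library. PNO1 had an adjusted p of 0.28 without the first DMSO library, 0.06 without the first BI-D1870 library and 0.087 without the second. POLR1C had 0.093 without the first DMSO library and 0.072 without the second BI-D1870 library, and NOP14 had 0.054 and 0.075 without the first and the second DMSO library (edgeR throughout). With GC and length trends removed, a step chosen after seeing the data, the adjusted p was 0.053 for POLR1C and 0.062 for NOP14.

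The members that BCI lowered most at 4 h were not those that BI-D1870 lowered most. These tables share no library, though the time differs, 4 h against 24 h, so the values are only set side by side. NOP16, UTP15, PPAN and NIP7, which fell by 0.71 to 0.98 under BCI, had log2 fold changes of -0.13, 0.05, -0.11 and -0.01 under BI-D1870 and did not pass the test there. RRP1B, which fell by 0.73 under BCI, fell by 0.10 under BI-D1870. FBL and NHP2, at -0.11 and -0.10 under BCI, fell by 0.61 and 0.62 under BI-D1870. Over the 51 members Pearson's r between the 2 log2 fold changes was -0.28 and Spearman's rho -0.31, as a description over genes that are not independent. Falls in both were called for 21 members, which is 52.5% of the 40 that fell under BCI and 77.8% of the 27 that fell under BI-D1870. Of all 51 members 52.9% fell under BI-D1870 and 78.4% under BCI, so these shares are those of the members as a whole. NOP56, POLR1C and NOP14 fell under BCI and rose under BI-D1870. MYC fell in both, by 0.57 and, with 928 and 912 CPM in DMSO and 538 and 519 CPM in BI-D1870, by 0.80 (edgeR adjusted p = 1.2e-12). Its part in the members' values was not tested. Of members with an E-box 11 of 21 fell and 2 rose under BI-D1870 (median -0.16), and of those without 11 of 23 fell and 2 rose (median -0.13).

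**Figure D4:**
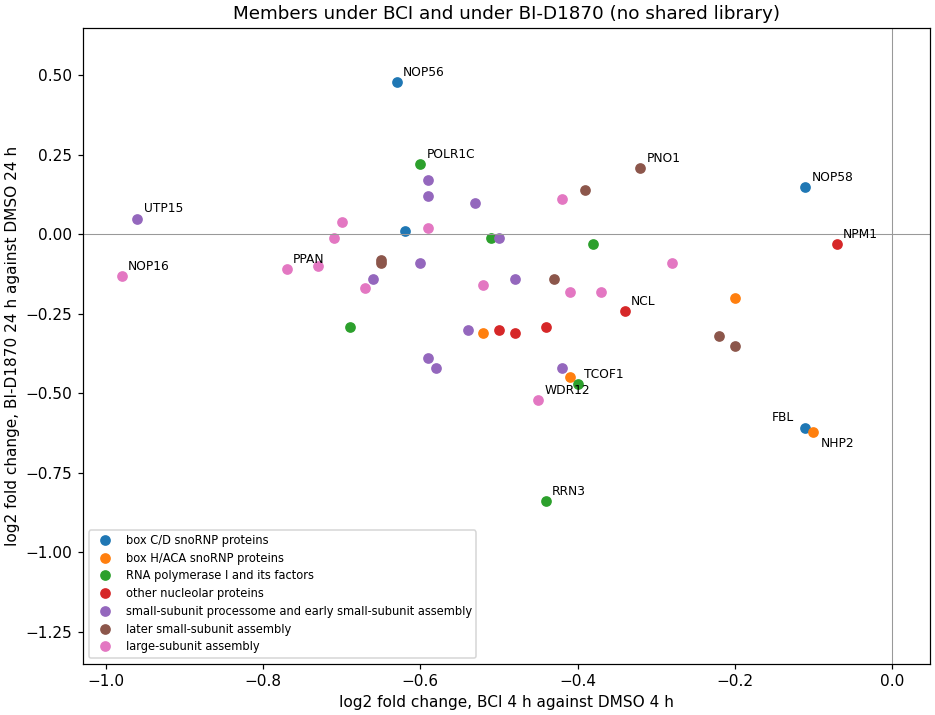
Each point is 1 of the 51 members, with its log2 fold change for BCI at 4 h on the x axis and for BI-D1870 at 24 h on the y axis, coloured by role. NOP16 and UTP15 lie far left and near 0 on the y axis, FBL and NHP2 far right and low, and NOP56 alone near the top (-0.63 and 0.48).

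With BCI added to BI-D1870, the comparison with DMSO gave 34 members that fell, 1 that rose (NOP56, by 0.43) and 16 that did not pass, beside 24.3% and 22.6% of all genes. The median was -0.19. Without overlap, 38 members were lower and 4 higher, beside 36.4% and 35.1% of all genes. It shares its DMSO libraries with the BI-D1870 comparison. RRN3 fell by 0.79, FBL by 0.66, NHP2 by 0.58, and WDR12 and IMP4, a U3 snoRNP protein of the processome, by 0.53 each. With both inhibitors RRN3 had 86.4 and 82.6 CPM, FBL 114 and 119 CPM, NHP2 39.5 and 41 CPM, WDR12 59 and 59.2 CPM and NOP56 256 and 258 CPM, each close to its level with BI-D1870 alone. IMP4 had 113 and 114 CPM in DMSO, 85.5 and 88.4 CPM with BI-D1870 and 78.8 and 79.2 CPM with both. MYC, at 476 and 463 CPM, fell by 0.97. Against BI-D1870 alone, which asks what BCI adds, 5 members fell and none rose, beside 2.48% and 2.22% of all genes. Without overlap, 27 members were lower and 1 higher, beside 23% and 23.8% of all genes. MYC fell by 0.17 (edgeR adjusted p = 0.0091). NOP58 fell by 0.22 (SE 0.0412, edgeR adjusted p = 0.0035), from 227 and 219 CPM to 198 and 187 CPM. LYAR fell by 0.20 (from 83.7 and 82.6 CPM to 74.8 and 69.9 CPM), NPM1 by 0.16 (from 1093 and 1054 CPM to 994 and 922 CPM), NCL by 0.15 (from 1583 and 1548 CPM to 1437 and 1388 CPM) and NOP14 by 0.14 (from 158 and 161 CPM to 147 and 142 CPM). In all 5 both libraries of the pair lay below both BI-D1870 libraries. NOP16 and UTP15, the members that BCI alone lowered most at 4 h, had log2 fold changes of 0.01 and -0.11 here and did not pass the test.

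Each of the 5 calls of BCI on top of BI-D1870 was lost in some setting. Without the first BI-D1870 library 0 members were called, without the second 1, and without the second library of the pair 0. NOP58 kept its call in the second of these settings and had an edgeR adjusted p of 0.091 and 0.097 in the others. Without the first BI-D1870 library the adjusted p was 0.24 for LYAR, 0.26 for NPM1, 0.18 for NCL and 0.19 for NOP14. With GC and length trends removed it was 0.09 for LYAR and 0.12 for NPM1, and with the size factors of DESeq2 it was 0.059 for NOP14. Of the other 86 pathway genes 27 fell (31.4%) and 20 rose (23.3%) under BI-D1870, beside 24.3% and 22.8% of all genes. Their median log2 fold change was -0.01, the same as over all genes tested. BRIX1 fell by 0.61, RRP15 by 0.56 and WDR18 by 0.47, while NOL9 rose by 0.47, TSR2 by 0.42 and UTP6 by 0.39. Under the pair 33 fell (38.4%) and 19 rose (22.1%), beside 24.3% and 22.6% of all genes. Between the pair and BI-D1870 alone 2 fell (RCL1, POLR1D) and 1 rose (NOP53). These are 2.33% and 1.16%, beside 2.48% and 2.22% of all genes.

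The third table compared parental cells with cells that persisted under a JAK2 inhibitor, and its libraries varied most. Summed member levels were 5794 and 7507 CPM in parental, 8996 and 7947 CPM in RuxP and 6244 and 6359 CPM in FedP cells. In these sums both RuxP libraries lay above both parental libraries, and the FedP libraries lay between the parental ones. The sums weigh abundant members most, and NCL alone had 2636 CPM in the first RuxP library. The median member, in log2 CPM, stood at 5.968 and 5.989 in parental and 6.324 and 6.222 in RuxP cells. In FedP cells it stood at 5.925 and 5.919, slightly below both parental libraries. In RuxP cells no member passed the test, beside 4.28% of all genes that rose and 2.17% that fell. An unadjusted p under 0.05 by edgeR was reached by 13 members (25.5%), near the 23.9% of all genes. DESeq2 called 6 members (11.8%, beside 15.5% of all genes) and limma-voom 0 (beside 6.56%). The median log2 fold change was 0.29 (range -0.78 to 0.85), beside -0.04 over all genes, and 43 of 51 values were positive. Without overlap, 21 members were higher and 2 lower, beside 24% and 23.9% of all genes. UTP20 came closest (log2 fold change 0.85, SE 0.196, edgeR adjusted p = 0.059), with 9.26 and 11.3 CPM in parental and 16.6 and 20.6 CPM in RuxP cells. UTP15 followed, with 8.98 and 11.6 CPM and then 19.1 and 16.1 CPM (0.78, adjusted p = 0.076). NOP56 had 110.3 and 104 CPM in parental and 129 and 134 CPM in RuxP cells, without overlap (0.30, adjusted p = 0.26). FBL had 118 and 82.1 CPM in parental and 133 and 148 CPM in RuxP cells, without overlap (0.49, adjusted p = 0.22). NCL had 1410 and 2235 CPM in parental and 2636 and 2114 CPM in RuxP cells, with overlap. MYC had 720.1 and 419.9 CPM and then 322 and 463 CPM (-0.54, adjusted p = 0.32). Leaving out the second parental library gave 19 called members (18 up, 1 down), 37.3% of the 51 beside 24.5% of all genes tested, and leaving out the first gave 4 (all up), 7.84% beside 8.9%.

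In FedP cells 1 member passed the test, beside 3.84% of all genes that rose and 2.79% that fell. NOB1 rose by 1.06 (SE 0.202, edgeR adjusted p = 0.036), from 75 and 54.8 CPM in parental to 133 and 137 CPM in FedP cells. That call was lost without any one RuxP or FedP library, at log2 fold changes of 1.03 to 1.07. It was also lost with the replicate block (edgeR adjusted p = 0.11) and with only the groups compared (edgeR adjusted p = 0.077). The count of NOB1 is uncertain. Its transcript matches AC098859.1 at 96.8% identity, and AC092115.3 on the opposite strand overlaps 20.2% of its exon bases. The members' median was 0.18 (range -0.80 to 1.06), beside 0.01 over all genes. Without overlap, 23 members were higher and 10 lower, beside 33% and 30% of all genes. By edgeR 11 members (21.6%) had an unadjusted p under 0.05, beside 25% of all genes. DESeq2 called 5 members (9.8%, beside 16.2%) and limma-voom 2 (3.92%, beside 8.03%), both below the share of all genes. NOL6, of the early small-subunit group, had 34.3 and 23.4 CPM and then 57.6 and 53 CPM (0.94, adjusted p = 0.057), and BOP1, of the PeBoW complex, had 132 and 68.3 CPM and then 174 and 174 CPM (0.80, adjusted p = 0.18). FBL had 118 and 82.1 CPM and then 167 and 169 CPM (0.75, adjusted p = 0.09). NOP58, at the other end, had 106 and 226 CPM and then 92.8 and 98 CPM (-0.80, adjusted p = 0.27). NOP56 had 106 and 108 CPM, inside the parental range, and NCL 1272 and 1296 CPM, below both parental libraries (-0.51, adjusted p = 0.26). MYC had 761 and 754 CPM (0.41, adjusted p = 0.43). Without the first parental library 25 members were called (16 up, 9 down), 49% beside 30.4% of all genes, without the second 2, and without any one RuxP or FedP library 0.

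Between FedP and RuxP cells no member passed the test, beside 0.232% of all genes that rose and 1.16% that fell. By edgeR 22 members (43.1%) had an unadjusted p under 0.05, beside 32% of all genes. DESeq2 called 17 members (33.3%, beside 23.1%) and limma-voom 1 (1.96%, beside 2.79%). Values ran from -1.62 for NOP58 (92.8 and 98 CPM against 362 and 223 CPM, adjusted p = 0.094) to 1.22 for PPAN (9.52 and 10.3 CPM against 3.92 and 4.59 CPM, adjusted p = 0.083). NCL had 1272 and 1296 CPM in FedP and 2636 and 2114 CPM in RuxP cells (-0.89, adjusted p = 0.1). In all 3 genes the libraries of the 2 groups did not overlap, an arrangement found in all genes at 35.7% for lower and 40.3% for higher, and among the members in 30 and 17. Leaving out the first parental library gave 28 called members (54.9%, beside 32.6% of all genes) and leaving out the second 25 (49%, beside 31.5%).

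The members' values in this table moved with the GC content of their transcripts, which ranged from 40.1% (UTP15) to 65.3% (BOP1) with a median of 48.7%. Over the 51 members, which share the same libraries, Pearson's r between GC and log2 fold change was -0.45 for RuxP against parental, 0.65 for FedP against parental and 0.73 for FedP against RuxP (Spearman's rho -0.43, 0.66 and 0.72). For BCI it was -0.09 at 4 h, -0.31 at 48 h and 0.03 for the difference between the times. Between the times it was 0.00 in DMSO and 0.02 in BCI. For BI-D1870 it was 0.12, for the pair against DMSO 0.20 and for the pair against BI-D1870 alone 0.25. For FedP against RuxP the median was 0.33 in the 26 members at or above the median GC and -0.58 in the 25 below. NOP58 and LTV1, at 42.1% and 41.7% GC, were among the lowest in FedP against RuxP (-1.62 and -1.04), and PPAN and NOB1, at 62.4% and 55.4%, the highest (1.22 and 1.1). With each library's trend on GC and on length removed, a step chosen after seeing the data, 20 members were called in RuxP (19 up, 1 down), 12 in FedP (10 up, 2 down) and 15 between them (1 up, 14 down). These are 39.2%, 23.5% and 29.4% of the members, beside 22.3%, 24.8% and 14.9% of all genes, so the FedP share is that of all genes. The medians of the members were then 0.37, 0.11 and -0.19. The part of GC in the uncorrected values was not tested further. In the uncorrected fit 1 of the other 86 pathway genes rose in RuxP (TAF1A, by 1.07), 1.16% beside 4.28% of all genes. In FedP 2 rose (NOC2L by 0.82, RCL1 by 0.66), 2.33% beside 3.84% of all genes. None passed between RuxP and FedP.

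**Figure D5:**
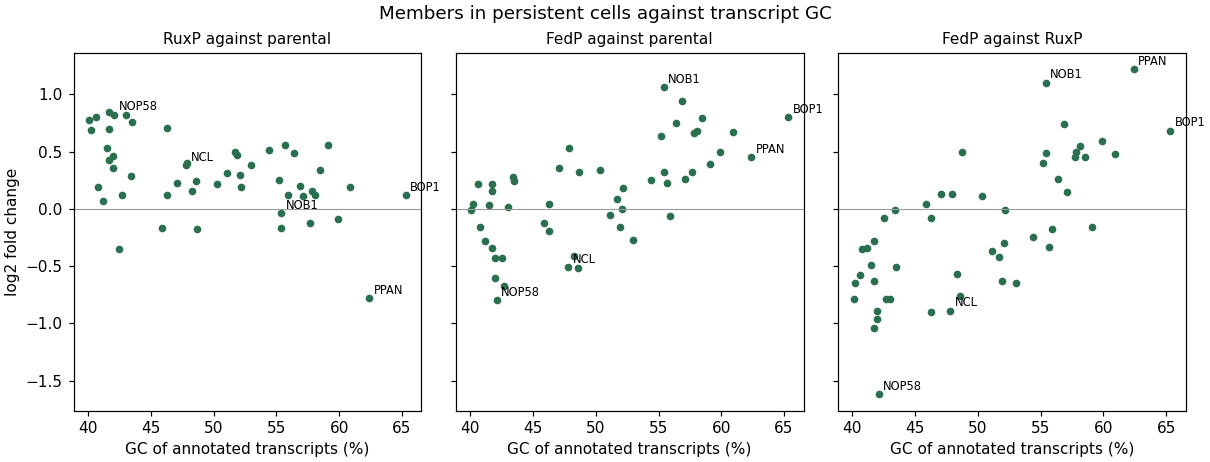
Each point is 1 of the 51 members, with the GC content of its annotated transcripts on the x axis (percent) and its log2 fold change on the y axis, for RuxP against parental, FedP against parental and FedP against RuxP. Values fall with GC in RuxP (Pearson's r -0.45) and rise with GC in FedP against parental and against RuxP (0.65 and 0.73), with NOP58 low and PPAN high in FedP against RuxP.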

How the data were processed

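Per the labels, RNA was prepared on RNeasy columns with DNase and read on an Illumina NovaSeq. The submitters' processing notes name bcl2fastq, STAR 2.5.1a, edgeR and the build GRCh38. The deposited values are raw counts per gene, 3 tables in all. Counting program, annotation release and strand setting: not given in the sources used here. Among counts of 1 to 20, 59.8 to 73.1% were even numbers, depending on the library. Of a gene listed more than once, the first entry was kept (116, 116 and 130 dropped).

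In R 4.3.3 each table was tested on its own with edgeR 4.0.16 (filterByExpr, TMM, quasi-likelihood test, all groups together, no block, 4, 3 and 3 residual degrees of freedom). A call is an adjusted p under 0.05 (Benjamini-Hochberg) across every gene tested. CPM use the TMM-scaled library size, and a standard error is the log2 fold change divided by the square root of F. DESeq2 1.42.0 (test, or size factors alone), limma 3.58.1 voom, other filters, fewer groups, a block and leaving out libraries were tried as alternatives. Removal of GC and length trends, a crossed block and the comparison of BCI at 48 h with 4 h were added after seeing the data. The scripts were tested on simulated data.

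The 51 members and the list of other pathway genes were chosen with earlier results of these data known. Library values are given for NOP56, FBL and NCL, and for up to 5 called members with the largest rise and fall in a comparison. Any other member may be named with its value. Up to 3 of the other pathway genes are named in each direction.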

Additional observations from a re-analysis of the deposited data

Results flagged for a closer look

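The response to BCI differed between 48 h and 4 h, by the test of the difference itself, for 26 of the 51 members. Named among them are UTP15 (difference 1.05 on the log2 scale), NOP16 (0.99), RRP1B (0.83), MRTO4 (0.77), LTV1 (0.75), NIP7 (0.75) and NOP56 (0.67), each with a fall at 4 h and a value near 0 at 48 h. The DMSO means of the named genes were themselves lower at 48 h. LTV1 had 85.8 and then 51.7 CPM in DMSO, and 54.5 and then 55.1 CPM in BCI. NOP56 had 298 and then 262 CPM in DMSO, and 193 and then 268 CPM in BCI. Most of these calls were lost when a 4 h library was left out, as given above. Groups of 2 libraries were too small to look for single outlying libraries.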

How the results depend on the processing

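Members called are given first, then all genes called. For RuxP the main counts were 0 and 1026. They were 3 and 1836 with no low-count filter, 6 and 2469 with DESeq2, 20 and 3545 with GC and length trends removed, and 324 and 419 genes with the replicate block and with only the groups compared. For FedP the main counts were 1 and 1055. They were 3 and 1818 with no filter, 5 and 2573 with DESeq2, 0 and 272 with the replicate block, 0 and 568 with only the groups compared, 12 and 3942 with GC and length trends removed, and 2 members with at least 1 CPM in every group mean and with limma-voom. For FedP against RuxP the main counts were 0 and 222. They were 12 and 2886 with no filter, 17 and 3680 with DESeq2, 1 and 445 with limma-voom, 30 and 5783 with only the groups compared, 15 and 2368 with GC and length trends removed, 1 member with at least 1 CPM and 0 genes with the replicate block. For BCI at 4 h 5691 genes were called with only the groups compared, against 2354. For BCI at 48 h 27 genes were called with no filter, against 0. For the difference between the times 1658 genes were called with no filter, 1440 with DESeq2 and 1166 with the replicate block, against 757. The cause of these shifts was not tested.

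With 1 library left out the counts ran from 15 to 42 members and 555 to 3241 genes for BCI at 4 h, 0 to 0 and 0 to 0 at 48 h, 0 to 38 and 88 to 1705 for the difference, 30 to 45 and 2498 to 6024 for DMSO at 48 h against 4 h, 6 to 20 and 2530 to 6630 for BCI at 48 h against 4 h, 22 to 33 and 8381 to 9840 for BI-D1870, 27 to 35 and 8378 to 9856 for the pair, 0 to 6 and 325 to 1229 for BCI on top, 0 to 19 and 170 to 4157 for RuxP, 0 to 25 and 197 to 5293 for FedP, and 0 to 28 and 0 to 5672 for FedP against RuxP.

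Replicate numbers in the labels were not taken as pairs, since deviations of same-numbered libraries correlated at -0.222 to 0.316 and not above 0.1 throughout. At 48 h, where DMSO and BCI libraries of 1 number did go together (0.316), the replicate block called 0 members and 0 genes for BCI, with 0 members and 364 genes at an unadjusted p under 0.05. For RuxP the numbers looked crossed (-0.222), and a crossed replicate block gave 8 members and 2282 genes.

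Direction changed for 12 of the named genes' values under alternatives, none of them called. With 1 library left out, BCI at 48 h ran from -0.12 to 0.22 for FBL (-0.12 without the first 48 h BCI library, -0.05 without the second 48 h DMSO library) and from -0.03 to 0.16 for NCL (-0.03 and -0.02 without these). The difference between the times ran from -0.01 to 0.33 for FBL, and BCI at 48 h against 4 h from -0.02 to 0.16 for NCL. DMSO at 48 h against 4 h ran from -0.12 to 0.01 for LAS1L and from -0.14 to 0.68 for NOB1. BI-D1870 ran from -0.07 to 0.2 for UTP15 and from -0.05 to 0.03 for NPM1. FBL gave -0.25 for FedP against RuxP with GC and length trends removed. Of the other alternative values 1697 kept direction and call, 117 gained a call and 102 lost one.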
